A study of Tupaia belangeri chinensis with 36 samples.

Results

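The marginal zone (MZ) of the fetal cortex of the Chinese tree shrew (Tupaia belangeri chinensis) was followed over embryonic days 28, 37 and 42 (E28, E37 and E42). All libraries whose label names the MZ were taken, 6 of the 36 libraries analysed here. There were 2 at E28 (replicates 1 and 2), 2 at E37 (replicates 2 and 3) and 2 at E42 (replicates 1 and 2). Each was made from tissue cut out of Nissl-stained frozen sections by laser capture microdissection, and poly-A RNA was sequenced. The labels distinguish the groups by stage and give no treatment or genotype. The study's methods speak of biological replicates in general, but no source used here ties a library to a fetus, so the p-values measure the spread between these libraries, which may in part be technical. A cut layer holds every cell type that lies in it, so fewer cells of a type and less RNA per cell cannot be told apart.

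The MZ is the outermost layer of the developing cortex, below the meninges. It holds Cajal-Retzius cells, early-born neurons that secrete reelin, a signal that guides the placing of migrating neurons, together with interneurons passing through, the tips of apical dendrites, and the end feet of radial glia. Cajal-Retzius cells are known to be transient, and glia appear in the cortex after neurogenesis.

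Most of the annotated features could not be named. Of 76871 features, 21043 carried a TSDBGID identifier that the files do not pair with a gene, 31776 were intergenic transcripts named LINC-SYMBOL-n after a gene, and 22595 were antisense transcripts named SYMBOL-AS-n. The TSDBGID features took 97.74% to 98.16% of the counts of an MZ library, the LINC features 0.775% to 1.052% and the AS features 0.9944% to 1.442%. The genes below are thus named through noncoding features that carry their symbol. Such a count is not the level of that gene, and because the counting is not stated to use strand, reads of an AS feature and of the gene on the other strand cannot be told apart. Values are CPM, counts scaled to a common library size after TMM normalisation. Features differ in length, so levels are compared between libraries and not between features.

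Counts on features were 30241305 and 20896997 at E28, 17932690 and 37278157 at E37, and 102042743 and 21545784 at E42. Replicate 1 of E42 was the deepest library and had a count on 37327 features, against at most 25395 in the others. No pair of MZ libraries was alike within sampling noise: the chi-square per degree of freedom was 97.93 between the replicates of E28, 72.12 at E37 and 41.57 at E42, against 0.9874 for simulated noise, and 85.9 to 298.6 between stages. In a principal component analysis of log2 CPM of the tested features, PC1 held 33.4% of the variance and placed E28 at −124 and −114.8, E37 at 42.78 and 36.22, and E42 at 70.69 and 89.06. PC2 (24.3%) set the 2 libraries of E28 apart, at −121.9 and 130.9. The widest spread within a stage was therefore at E28.

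The layer label was first checked with features named after genes of Cajal-Retzius cells. LINC-LHX5-1 carries the symbol of LHX5, a LIM homeobox gene of Cajal-Retzius cells, and stood at 123 and 77.1 CPM at E28, 30.5 and 67.4 at E37, and 11.9 and 18.9 at E42. In the other layers, which were the cortical plate (CP, with inner and outer parts CPi and CPo), the intermediate zone (IZ), the outer and inner subventricular zones (OSVZ and ISVZ) and the ventricular zone (VZ), its highest level was 1.93 CPM, in the CP at E28. Its log2 difference between the MZ and the CP was 6.08 (SE 0.67) at E28, 8.18 (SE 0.53) at E37 and 8.81 (SE 0.65) at E42, with adjusted p = 5.24e-06, 2e-10 and 1.41e-09 (edgeR quasi-likelihood test). RELN-AS-5, antisense to the gene of reelin, had 1.88 and 0.661 CPM at E28, 1.33 and 1.07 at E37, and 0.268 and 0.917 at E42, and it too was higher in the MZ than in the CP at each stage (adjusted p = 0.0223, 0.00691 and 0.0125). RELN-AS-4 passed at E37 alone (adjusted p = 0.179, 0.00351 and 0.393) and RELN-AS-1 at no stage (0.294, 1 and 0.227). Of the 12 tested features on the Cajal-Retzius list, 2, 5 and 3 were higher in the MZ than in the CP at E28, E37 and E42, and 0 were lower. Over all features, 9.22% differed between MZ and CP at E28 (4.45% higher and 4.77% lower in the MZ), 18.7% at E37 (10.3% and 8.42%) and 17.3% at E42 (10.4% and 6.91%). Same-numbered libraries of the MZ and the CP or IZ of a stage deviated together (correlations of 0.171 to 0.485). With the replicate number of each stage as a block, an alternative chosen after seeing the data, 4276 features differed between MZ and CP at E28, against 2476.

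Over time, LINC-LHX5-1 fell. Both libraries of E42 lay below both of E37, and these below both of E28. The log2 change from E28 to E42 was −2.71 (SE 0.56, adjusted p = 0.00227). Neither step passed alone: it was −1.03 (SE 0.53, adjusted p = 0.263) to E37 and −1.68 (SE 0.55, adjusted p = 0.143) from there. Without replicate 1 of E42 the fall was 2.39 on the log2 scale and no longer passed (adjusted p = 0.0649). LINC-LHX5-1 was the 1 called feature of the 12 tested on the Cajal-Retzius list (8.33% lower, against 0.526% of all tested features with a symbol). The 12 had a median log2 change of −0.95. The DESeq2 Wald test and the fit with the replicate number as a block each called 2 of the list lower, and without replicate 1 of E42 none was. LINC-TP73-1, named after the p53-family gene TP73 that marks these cells, went from 5.91 and 7.36 CPM at E28 through 4.89 and 4.77 to 3.78 and 2.70 at E42, without overlap between stages and without passing the test. RELN-AS-5 did not pass either (log2 change −1.14, SE 1.4, adjusted p = 0.658). RELN-AS-4 had 1.06 and 1.76 CPM at E28, 0.0556 and 2.15 at E37, and 0.0287 and 0 at E42. Both libraries of E42 lay below those of E28, and the change did not pass (adjusted p = 0.0952). The summed level of the list was 134 and 89.5 CPM at E28, 40.0 and 77.0 at E37, and 17.6 and 24.8 at E42. Without LINC-LHX5-1 it was 10.9 and 12.4, then 9.56 and 9.51, then 5.77 and 5.89.

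Most of the features called between E28 and E42 in the MZ were higher at E42. Of 26858 tested features, 2585 (9.62%) differed between E42 and E28 at an adjusted p under 0.05, 1978 higher (7.36%) and 607 lower (2.26%). The median log2 change was 1.98 among the higher and −0.98 among the lower, and 0.11 over all tested features. Among the 10836 tested LINC and AS features with a symbol, 198 were higher (1.83%) and 57 lower (0.526%), whereas among the TSDBGID features 1775 (11.2%) and 550 (3.46%) were. Of the 198 rising features with a symbol, 104 had no count in either library of E28, and 69 had a mean of at least 1 CPM over the MZ libraries. The count was 1529 without replicate 1 of E42 and 1523 without replicate 2. The DESeq2 Wald test called 3683 features, 2307 higher and 1376 lower, so that 62.6% of its calls were higher, against 76.5% above. With DESeq2 size factors in the edgeR fit 67.9% of the calls were higher. With replicate 1 of E42 thinned to the depth of replicate 2, an alternative chosen after seeing the data, 1893 were higher and 648 lower.

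**Figure D1:**
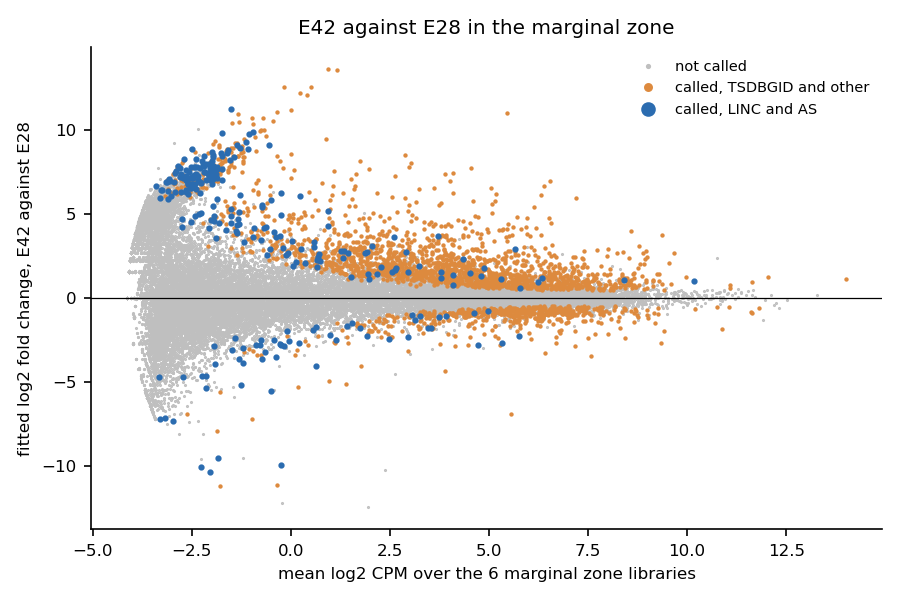
Fitted log2 fold change of E42 against E28 (vertical axis) by mean log2 CPM over the 6 MZ libraries (horizontal axis), 1 point per tested feature. Orange points are called TSDBGID and other features, blue points called LINC and AS features, grey points the rest. Of the 2585 called features 1978 lie above 0. The blue cluster at the upper left holds features with few or no counts at E28, whose fitted fold change has no fixed size.

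On the list of astrocytes and gliogenesis 10 of 51 tested features were higher at E42 and 0 lower (19.6% higher, against 1.83% of all tested features with a symbol), while 41 did not pass. Without a filter on low counts 11 of 178 were higher, and with the 6 MZ libraries alone 6 of 13, with 0 lower in both. Listed members without counts at E28 entered the test only through other libraries, so the share called higher is not independent of the filter. The 51 had a median log2 change of 2.92, or 1.19 when members without counts in a group were set to 3 counts there. LINC-GLUL-1, named after glutamine synthetase, which turns glutamate into glutamine in astrocytes, was the most abundant of those named. It had 22.4 and 19.1 CPM at E28, 47.5 and 34.7 at E37, and 153 and 154 at E42. The stages did not overlap, and the log2 change from E28 to E42 was 2.89 (SE 0.20, adjusted p = 3.22e-11). LINC-SOX9-15 carries the symbol of SOX9, a transcription factor of radial glia and astrocytes. It had no count at E28, 0.945 and 0.471 CPM at E37, and 2.82 and 3.81 at E42, at least 55.4-fold higher than 3 counts over the E28 group would be (adjusted p = 5.79e-06). SLC1A3-AS-1, antisense to the gene of the glial glutamate transporter GLAST, rose likewise from 0 in both libraries of E28 to 0.389 and 0.157 CPM at E37 and 1.58 and 1.21 at E42, at least 28.1-fold (adjusted p = 0.000367). Neither feature was confined to the MZ. In the other layers LINC-SOX9-15 had 0 to 10.5 CPM at E28 and 0.217 to 19.6 at E42. SLC1A3-AS-1 had 0 to 1.34 CPM there at E28 and 0.596 to 2.04 at E42.

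AQP4-AS-1, antisense to the gene of the water channel of astrocytic end feet, had its highest values at E37. It had 1 count in the 2 libraries of E28 together (0 and 0.0441 CPM), 4.22 and 4.69 CPM at E37, and 1.93 and 1.40 at E42. Both later stages lay above E28. Both libraries of E37 lay above both of E42, but the step from E37 to E42 did not pass (log2 change −1.41, SE 0.71, adjusted p = 0.383). The ratio of E42 to E28 was 103, with a 95% counting interval of 18.2 to 4070 (adjusted p = 0.000217). Summed over the list, the level was 26.7 and 28.7 CPM at E28, 61.3 and 56.1 at E37, and 198 and 188 at E42. Without LINC-GLUL-1 the sums were 4.28 and 9.61, then 13.8 and 21.4, then 44.6 and 33.2.

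On the list of the oligodendrocyte lineage 4 of 18 tested features were higher at E42 and 0 lower. This was 22.2% higher, against 1.83% of all tested features with a symbol. Of these 4, 3 had no count at E28, so they entered the test only through other libraries. The number called higher was 1 without replicate 2 of E28. Without a filter on low counts 5 of 71 were higher, and with the 6 MZ libraries alone 1 of 8. The summed level of the list was 2.49 and 0.882 CPM at E28, 1.00 and 5.87 at E37, and 8.79 and 10.6 at E42, so that E28 and E37 overlapped. The 18 features had a median log2 change of 3.50, or 2.26 with empty groups at 3 counts. LINC-SOX10-1, named after SOX10, a transcription factor needed for oligodendrocytes, had 0 at E28, 0.278 and 1.13 CPM at E37, and 2.33 and 3.91 at E42. E42 was at least 48.1-fold above E28 (adjusted p = 1.58e-05), and this held without any 1 MZ library. In the other layers LINC-SOX10-1 had at most 0.451 CPM at E28 and 0.335 to 16.2 at E42. The OSVZ at E42, with 8.86 and 16.2 CPM, stood above the MZ. OLIG2-AS-1, antisense to a determinant of the lineage, had 0 at E28, 0 and 1.2 CPM at E37, and 1.1 and 0.917 at E42. NKX2-2-AS-1 had 0 at E28, 0.333 and 0.419 CPM at E37, and 0.612 and 0.820 at E42. Both passed (at least 19.8-fold and 12-fold, adjusted p = 0.00835 and 0.0095), but OLIG2-AS-1 lost its call without replicate 1 or replicate 2 of E28 (adjusted p = 0.0625 and 0.0583), as did NKX2-2-AS-1 (0.0611 and 0.0591). The fourth called feature, LUZP2-AS-2, had 0.273 and 0 CPM at E28 against 1.93 and 2.51 at E42 (adjusted p = 0.0476) and lost its call without replicate 2 of E28 (adjusted p = 0.221) or without either library of E42 (0.0984 and 0.14). OLIG2-AS-1, NKX2-2-AS-1 and LUZP2-AS-2 reached 3.48, 1.22 and 4.26 CPM in the other layers at E42.

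**Figure D2:**
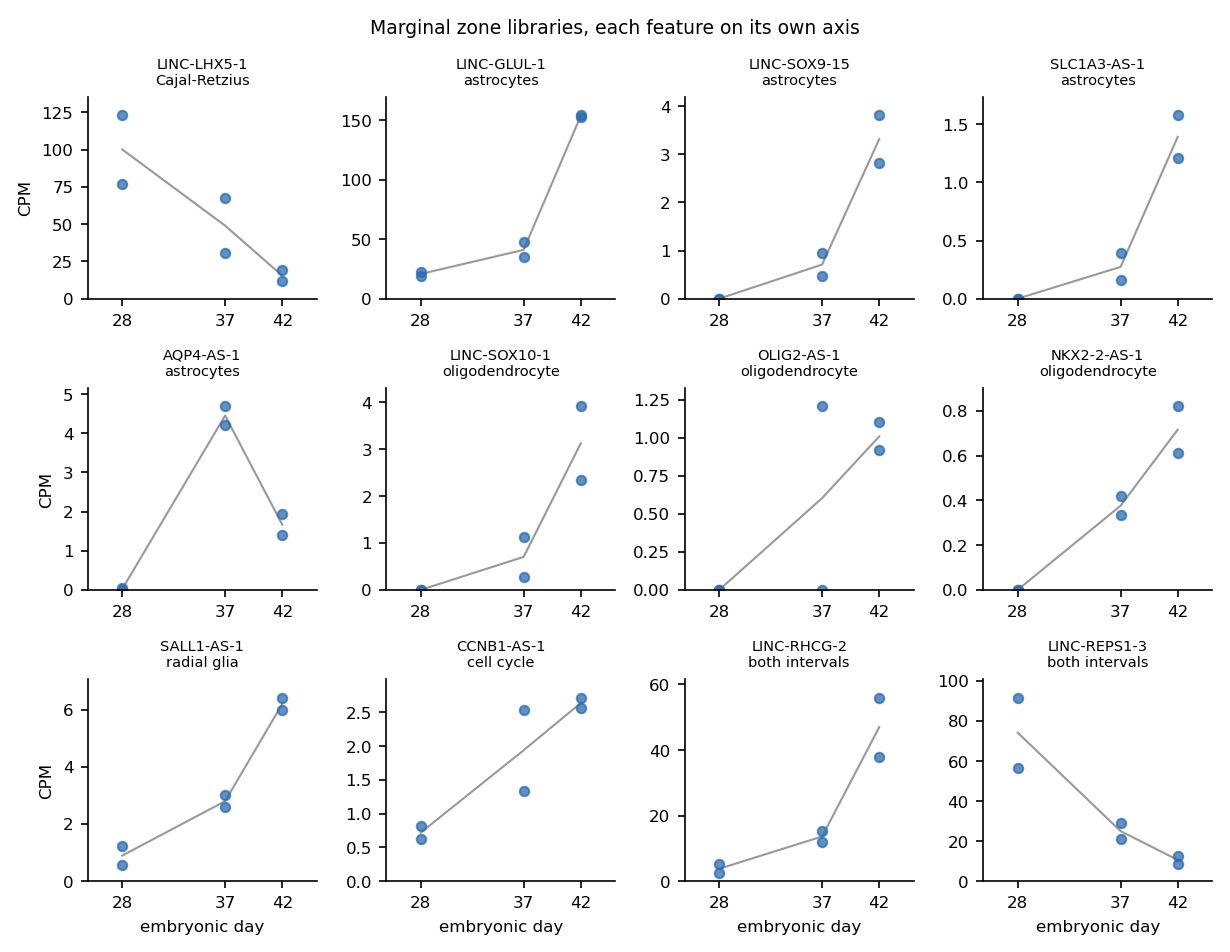
CPM (vertical axes, each starting at 0) of 12 features by embryonic day in the MZ. Each point is 1 library, 2 per stage, and the grey line joins the stage means. LINC-LHX5-1 and LINC-REPS1-3 descend, AQP4-AS-1 has its highest points at E37, 4.22 and 4.69 CPM, and the other 9 are higher in both libraries of E42 than in both of E28.

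Of 39 tested features of radial glia and intermediate progenitors, 7 were higher at E42 and 2 lower (17.9% and 5.13%). The higher ones were 3 without replicate 2 of E28, and the lower ones were 0 without replicate 1 of E28 or either library of E42. With the 6 MZ libraries alone 1 of 18 was higher and 0 lower, and without a filter on low counts 7 of 102 and 2. Of all tested features with a symbol, 1.83% were higher and 0.526% lower. The 39 had a median log2 change of 1.72, or 0.85 with empty groups at 3 counts. SALL1-AS-1, antisense to a zinc-finger gene of progenitors and microglia, had 1.21 and 0.573 CPM at E28, 3.00 and 2.59 at E37, and 6.42 and 5.98 at E42. The stages did not overlap, and the log2 change was 2.77 (SE 0.55, adjusted p = 0.000922). LINC-SOX1-1, named after a neural progenitor gene, rose from 0.667 and 0.0882 CPM at E28 to 3.57 and 2.36 at E42 (log2 change 2.90, SE 0.56, adjusted p = 0.000675). In the other layers at E42 SALL1-AS-1 had 0.540 to 19.0 CPM and LINC-SOX1-1 had 0.206 to 14.3. The 2 that fell both carry the symbol of NEUROG1, a proneural factor, and were named for their small number after their values were seen. LINC-NEUROG1-1 had 0.849 and 0.705 CPM at E28 and 44 counts there against 4 at E42 (adjusted p = 0.0312). Its call was lost without either library of E28 (adjusted p = 0.0543 and 0.0501) or of E42 (0.122 and 0.182). NEUROG1-AS-1 had 18 counts at E28, all in replicate 1, against 1 at E42 (adjusted p = 0.0392). Without that library of E28 its fitted change turned positive and did not pass (adjusted p = 0.792), nor did it without replicate 1 or 2 of E42 (0.307 and 0.125) or with all 36 libraries (0.068).

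On the cell cycle list 2 of 28 features were higher at E42 and 0 lower (7.14% higher). Of all tested features 7.36% were higher, and of those with a symbol 1.83%. CCNB1-AS-1, antisense to the gene of the mitotic cyclin B1, had 0.819 and 0.617 CPM at E28, 1.33 and 2.54 at E37, and 2.72 and 2.56 at E42, with a log2 change of 1.86 (SE 0.40, adjusted p = 0.00201). Its call was lost with all 36 libraries in the fit (adjusted p = 0.0919) and with the 6 MZ libraries alone (0.185). CCNB2-AS-2 passed at the edge of the threshold (log2 change 1.41, SE 0.46, adjusted p = 0.05 after rounding) and lost its call without any 1 of the 6 MZ libraries (adjusted p = 0.0508 to 0.199).

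Of all tested features with a symbol, 1.83% were higher at E42 and 0.526% lower. For excitatory neurons of the CP, 2 of 89 features (2.25%) were higher and 1 (1.12%) lower (median log2 change 0.10). This split turned to 1 higher and 5 lower without replicate 1 of E28 and to 3 and 4 by the DESeq2 Wald test, and none was lower without replicate 2 of E28 or replicate 2 of E42. LINC-NEUROD2-1, named after a factor of differentiating excitatory neurons, fell from 1.00 and 4.19 CPM at E28 through 0.167 and 1.26 to 0.287 and 0.0482 at E42 (log2 change −3.66, SE 0.83, adjusted p = 0.00333). Its call was lost without replicate 2 of E28 (adjusted p = 0.109) or replicate 2 of E42 (adjusted p = 0.063). For interneurons 0 of 49 features passed in either direction, with a median log2 change of 0.27 and summed levels of 51.5 and 103 CPM at E28, 43.9 and 69.1 at E37, and 65.6 and 50.0 at E42. At an unadjusted p under 0.05, 2 were higher and 2 lower, and the DESeq2 Wald test called 0 higher and 1 lower.

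Of 126 features on the synapse list 4 were higher at E42 (3.17%) and 1 lower (0.794%), with a median log2 change of −0.01. Of all tested features with a symbol, 1.83% were higher and 0.526% lower. NLGN4X-AS-2, antisense to a neuroligin gene, a postsynaptic adhesion molecule, rose from 0.121 and 0.220 CPM at E28 through 0.722 and 1.70 to 2.30 and 2.03 at E42 (log2 change 3.67, SE 0.77, adjusted p = 0.00153). GABRA2-AS-1, antisense to a GABA-A receptor subunit gene, had 1 count at E28 and 1.05 and 2.12 CPM at E42, a ratio of 68.4 (95% counting interval 12.1 to 2720, adjusted p = 0.00261). DLG2-AS-16, antisense to a postsynaptic scaffold gene and named after its values were seen, fell from 25.1 and 29.7 CPM at E28 to 7.84 and 7.33 at E37 and 11.0 and 4.82 at E42 (log2 change −1.76, SE 0.52, adjusted p = 0.0355). Its call was lost without either library of E28 (adjusted p = 0.0583 and 0.124), without replicate 2 of E42 (0.26) and with all 36 libraries (0.169). On the list of voltage-gated channels 3 of 53 (5.66%) were higher and 0 lower (median log2 change −0.37). KCND3-AS-3, antisense to a gene of an A-type potassium channel, rose from 2.21 and 3.31 CPM at E28 to 10.3 and 9.70 at E42 (log2 change 1.86, SE 0.52, adjusted p = 0.0182). That call was lost without replicate 1 of E28 (adjusted p = 0.121) and without either library of E42 (0.078 and 0.0607).

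On the list of axon guidance and migration 2 of 86 features were higher and 2 lower (2.33% each). Of all tested features with a symbol, 1.83% were higher and 0.526% lower. The 86 had a median log2 change of 0.44, or −0.37 with empty groups at 3 counts. VLDLR-AS-2 is antisense to the gene of a reelin receptor and had 33.9 and 38.7 CPM at E28, 21.7 and 19.9 at E37, and 20.0 and 19.8 at E42. The later libraries all lay below those of E28, and the log2 change was −0.87 (SE 0.23, adjusted p = 0.0143), with the call lost without replicate 2 of E28 (adjusted p = 0.089) or either library of E42 (0.0966 and 0.0891). LINC-FLRT2-11, named after a gene of an adhesion molecule that acts in neuronal migration, went from 0 at E28 to 1.62 and 4.78 CPM at E42, at least 39.7-fold (adjusted p = 0.00431). TNC-AS-2, antisense to the gene of the matrix protein tenascin C, was the 1 called feature of 39 (2.56%) on the extracellular matrix list. TNC-AS-2 also stands on the astrocyte list. It had 0.243 and 0 CPM at E28, 0.889 and 2.23 at E37, and 13.3 and 5.21 at E42 (log2 change 6.07, SE 1.3, adjusted p = 0.00312). In the other layers TNC-AS-2 had 0 to 6.60 CPM at E28 and 0.0772 to 18.8 at E42. On the morphogen list 1 of 64 (1.56%) passed, near the share of all tested features with a symbol. It was DKK3-AS-2, antisense to a Dickkopf-family gene, at least 10.7-fold higher at E42 (adjusted p = 0.0318). Its call was lost without either library of E28 (adjusted p = 0.137 and 0.125) or replicate 1 of E42 (0.156). Of 43 cadherin and protocadherin features 0 passed (4 were higher and 2 lower at an unadjusted p under 0.05), with 1 higher by the DESeq2 Wald test.

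Lists of other cells that the cut could hold showed few calls. None of 18 endothelial and mural features and none of 12 features of the meninges passed. At an unadjusted p under 0.05, 2 endothelial and mural features were higher and 2 lower, 2 of the meninges were lower and 0 higher, and the DESeq2 Wald test called 0 and 1, the latter lower. Their summed levels were 4.67 to 7.54 CPM and 0.627 to 5.06 CPM over the 6 libraries, with E42 at 1.90 and 0.627 CPM for the meninges and E28 at 2.61 and 3.66. Of 7 features of microglia, macrophages and blood 1 was higher at E42 (14.3%, against 1.83% of all tested features with a symbol). It was SALL1-AS-1, which is also on the progenitor list. The summed level of those 7 was 5.43 and 12.0 CPM at E28, 13.1 and 14.2 at E37, and 17.4 and 11.3 at E42. The part of these cells in the changes above was not tested.

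**Figure D3:**
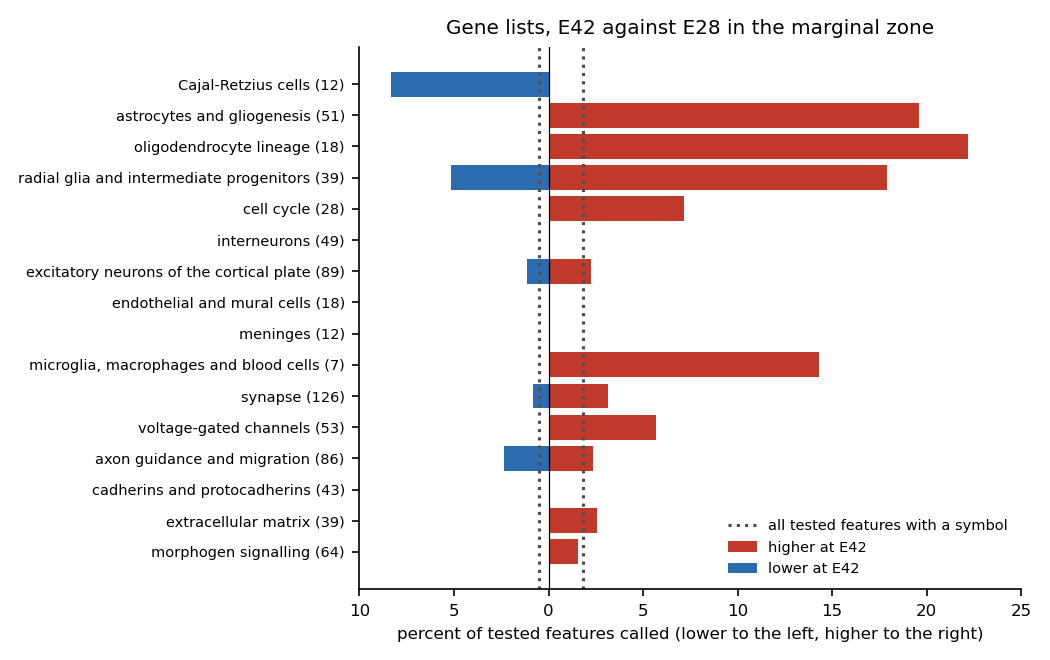
Percent of the tested features of each gene list that were called higher (red, right) or lower (blue, left) at E42 than at E28 in the MZ, with the number tested in brackets. Dotted lines mark all tested features with a symbol (1.83% higher, 0.526% lower). The glial, oligodendrocyte and progenitor lists reach 19.6%, 22.2% and 17.9% higher, while the list of microglia and blood rests on 1 of 7 features.

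The 10 rising features with a symbol, a mean of at least 1 CPM and the largest fitted change included ITGB5-AS-3, antisense to an integrin gene. It had 0 at E28, 0.0556 and 0.0524 CPM at E37, and 3.51 and 13.5 at E42, at least 95.8-fold above E28 (adjusted p = 9.07e-06). This rise was not confined to the MZ. In the other layers ITGB5-AS-3 had at most 2.42 CPM at E28, at most 0.252 at E37 and 0.257 to 30.2 at E42. Also among the 10 were LINC-SOX9-15, LINC-SOX10-1, LINC-FLRT2-11, TNC-AS-2, AQP4-AS-1 and LINC-IRX6-2. Of the unnamed features, TSDBGID.24558 had 0 at E28, 2.50 and 2.83 CPM at E37, and 45.8 and 43.5 at E42, and TSDBGID.10298 had 0, then 6.34 and 3.2, then 38.3 and 47.0. They were at least 843-fold and 738-fold higher at E42 (adjusted p = 3.9e-06 and 2.45e-06). In the other layers they had 0.041 to 15.2 and 0 to 0.322 CPM at E28, and 1.36 to 55.6 and 0.215 to 12.2 at E42.

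The largest falls included features that were present in every layer at E28. LINC-VAMP3-1 had 53.8 and 76.6 CPM in the MZ at E28 and at most 0.067 in any later MZ library (adjusted p = 1.89e-08). In the other layers it had 55.0 to 357 CPM in the 10 libraries of E28, at most 0.0448 in the 8 of E37 and at most 0.155 in the 11 of E42. LINC-SUCLG1-21 and IGHV4-28-AS-1 had no count in the MZ after E28, at least 179-fold and 138-fold lower at E42, against 2.76 and 6.53 CPM and 1.12 and 6.48 CPM at E28. The call of IGHV4-28-AS-1 was lost when all 36 libraries entered the fit (adjusted p = 0.0964). In the other layers these 2 also stood at 2.09 to 16.5 CPM and 2.72 to 16.0 CPM at E28 and at most at 0.149 and 0.0896 later. TSDBGID.17859 had the same course, with 50.8 and 70.1 CPM in the MZ at E28 and 57.0 to 298 in the other layers. Stage cannot be told apart from any other difference between the fetuses taken at each stage. This holds for these 4 and for every other change between stages given here.

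TSDBGID.16954 was also present in every layer at E28 and fell over the whole span. In the MZ it went from 327 and 810 CPM at E28 through 15.0 and 123 at E37 to 3.56 and 6.22 at E42 (log2 change −6.90, SE 0.88, adjusted p = 3.48e-05). The stages did not overlap. The other layers had 154 to 1466 CPM at E28, 73.1 to 460 at E37 and 6.77 to 190 at E42. Its change in the MZ lay below that in the CP by the fit, and this difference did not pass (−1.70, SE 0.93, adjusted p = 0.49). It was lower than in the IZ (−4.96, SE 1.0, adjusted p = 0.0137). Other falling features were lower in level: LINC-RWDD3-4 went from 4.13 and 6.83 CPM at E28 to 0.287 and 0.386 at E42 (log2 change −4.07, SE 0.74, adjusted p = 0.000399), and EXOSC10-AS-1, antisense to an RNA exosome gene, from 3.52 and 3.17 CPM to 0.411 and 0.0965 (log2 change −3.53, SE 0.69, adjusted p = 0.000689). In the other layers LINC-RWDD3-4 had 0.0247 to 31.4 CPM at E28, 1.11 to 6.69 at E37 and 0.197 to 9.08 at E42. EXOSC10-AS-1 was lower after E28 there too, with 1.84 to 5.10 CPM at E28, 0.224 to 0.797 at E37 and 0.391 to 1.24 at E42.

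E37 was used to place these changes in time. From E28 to E37, 1042 features (3.88%) differed, 730 higher (2.72%) and 312 lower (1.16%). From E37 to E42, 495 (1.84%) differed, 430 higher (1.6%) and 65 lower (0.242%). Of the 1978 features that rose from E28 to E42, 498 (25.2%) passed in the first interval alone, 246 (12.4%) in the second alone, 124 (6.27%) in both and 1110 (56.1%) in neither. Of the 607 that fell, 122 (20.1%), 39 (6.43%), 4 (0.659%) and 442 (72.8%) did. For most features the timing was therefore not resolved by a test of single steps with 2 libraries a stage. By the fitted values, the median share of the log2 change reached at E37 was 58.7% for rising features (quartiles 38.2% and 79.1%) and 61% for falling ones (41.3% and 79.2%). E37 lay between E28 and E42 in 1755 of the rising and 525 of the falling features. These shares rest on contrasts that share the E28 and E42 libraries and carry no test. The counts by interval depended on single libraries: from E28 to E37, 605 without replicate 2 of E37 and 1572 without replicate 1 of E28, and from E37 to E42, 154 without replicate 2 of E42 and 189 without replicate 1, and 177 and 217 without replicates 3 and 2 of E37.

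**Figure D4:**
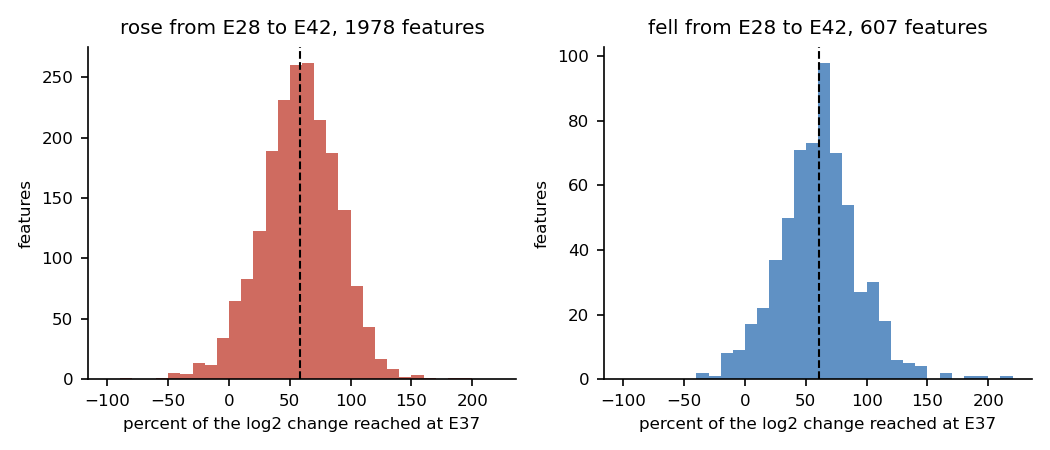
Percent of the fitted log2 change from E28 to E42 that was reached at E37 (horizontal axis), for the 1978 rising features (left) and the 607 falling ones (right), with the number of features on the vertical axis. Values beyond the ends of the axis are drawn at its ends. The dashed lines mark the medians, 58.7% and 61%. Most features lie between 0, no change by E37, and 100, the whole change.

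Among features with a symbol, 57 of the 198 that rose passed in the first interval alone and 10 in the second alone. In the first group stood AQP4-AS-1, LINC-SOX9-15, SLC1A3-AS-1, LINC-SOX10-1, OLIG2-AS-1, NKX2-2-AS-1 and CCNB1-AS-1. From E28 to E37 the adjusted p was 0.00011 for AQP4-AS-1, 0.00313 for LINC-SOX10-1 and 0.00341 for LINC-SOX9-15. It lay near the threshold for OLIG2-AS-1 (0.0377), CCNB1-AS-1 (0.0386), SLC1A3-AS-1 (0.0418) and NKX2-2-AS-1 (0.0488). OLIG2-AS-1 had 0 CPM in replicate 2 of E37. Passing in the first interval alone does not mean that a change ended at E37. From E37 to E42 the fitted log2 change was 2.26 (SE 0.67) for LINC-SOX9-15, 2.41 (SE 0.91) for SLC1A3-AS-1 and 2.07 (SE 0.71) for LINC-SOX10-1. It was 0.90 (SE 1.1) for NKX2-2-AS-1, 0.67 (SE 1.1) for OLIG2-AS-1, 0.42 (SE 0.37) for CCNB1-AS-1 and −1.41 (SE 0.71) for AQP4-AS-1. ITGB5-AS-3 passed in the second interval alone. From E28 to E37, 653 TSDBGID features (4.1% of those tested) were higher and 214 (1.34%) lower, against 39 (0.564%) and 79 (1.14%) of the AS features. The share of reads on no feature was 9.82% and 11.2% at E37, against 11.6% to 13.5% at E28 and E42, and its part in the AS counts was not tested.

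Few features moved one way in both steps. LINC-GLUL-1 and LINC-RHCG-2 were the 2 features with a symbol that rose in both, among 124. LINC-GLUL-1 rose by 0.98 (SE 0.19, adjusted p = 0.00289) to E37 and by 1.91 (SE 0.20, adjusted p = 4.52e-07) to E42 on the log2 scale. LINC-RHCG-2, named after an ammonium transporter gene, had 2.37 and 5.16 CPM at E28, 12.0 and 15.3 at E37, and 38.0 and 56.0 at E42. Its steps were 1.87 (SE 0.42, adjusted p = 0.0102) and 1.78 (SE 0.40, adjusted p = 0.0169), and its whole change 3.66 (SE 0.44, adjusted p = 2.67e-06). LINC-REPS1-3, named after an endocytosis gene, was the 1 feature with a symbol among the 4 that fell in both. It had 56.7 and 91.7 CPM at E28, 29.2 and 20.8 at E37, and 8.42 and 12.7 at E42, with steps of −1.57 (SE 0.27, adjusted p = 0.000966) and −1.25 (SE 0.27, adjusted p = 0.00969).

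A turn at E37 was tested with both steps. By these, 17 of 26858 tested features fell to E37 and then rose, and 4 rose and then fell. Of the 17, 9 were antisense features with a symbol, among 6914 tested AS features. Of the 4, 0 had a symbol. CAP2-AS-1, antisense to a gene of an actin regulator and named after its values were seen, had 2.94 and 1.68 CPM at E28, 0.889 and 0.34 at E37, and 3.56 and 3.86 at E42, with steps of −1.97 and 2.65 on the log2 scale. CAP2-AS-1 was not followed when single libraries were left out. EPB41L5-AS-2 also passed in both steps.

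E37 was also set against the mean of the other stages, a contrast that a feature with its whole change before or after E37 can pass too. Against the mean of the log values of E28 and E42, 55 features (0.205%) differed, 36 higher (0.134%) and 19 lower (0.0707%) at E37, of which 5 and 6 carried a symbol (0.0461% and 0.0554% of the tested features with one). AQP4-AS-1 was higher at E37 by 4.53 on the log2 scale (SE 0.72, adjusted p = 0.00363). This call held without any 1 MZ library and was lost with the 6 MZ libraries alone (adjusted p = 0.127). AQP4-AS-1 was near 0 at E28, and its step from E37 to E42 did not pass (adjusted p = 0.383), so no turn was shown. The CPo also had more at E37, 3.00 and 3.39 CPM, than at E42, 0.901 and 1.08 CPM. LINC-IRX6-2, named after an Iroquois homeobox gene, had 0 at E28, 4.56 and 1.70 CPM at E37, and 2.39 and 1.45 at E42, so that E37 and E42 overlapped and no turn was shown. It lost this call without replicate 2 of E37 (adjusted p = 0.102) and without either library of E42 (0.0542 and 0.0655). EPB41L5-AS-2 was lowest at E37, with 0.111 and 0.105 CPM against 0.819 and 4.28 at E28 and 1.61 and 0.868 at E42 (log2 difference −4.01, SE 0.77, adjusted p = 0.0194). It lost the call without replicate 2 of E37 (adjusted p = 0.117), replicate 3 of E37 (0.159) or replicate 1 of E42 (0.0792). ADGRG1-AS-2, antisense to an adhesion receptor gene of progenitors, had 32.1 and 32.3 CPM at E28, 24.5 and 30.4 at E37, and 55.0 and 85.2 at E42. Its lower value at E37 against the mean (−0.79, SE 0.17, adjusted p = 0.0442) was lost without either library of E28 (adjusted p = 0.0518 and 0.0601), either of E37 (0.26 and 0.121) or replicate 2 of E42 (0.175). Its step to E37 did not pass (log2 change −0.23, SE 0.19, adjusted p = 0.506). The step from E37 to E42 did (1.35, SE 0.19, adjusted p = 9.7e-05), so no dip at E37 was shown. LINC-VAMP3-1 was also called lower at E37, but it was near 0 at both later stages, and that call was lost without replicate 3 of E37 (adjusted p = 0.121) or either library of E42 (0.395 and 0.0564).

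The change from E28 to E42 was then compared with that in the CP (the mean of CPi and CPo at E42), which lies directly below the MZ. It differed for 561 features (2.09%), 370 with a higher (1.38%) and 191 with a lower change (0.711%) in the MZ, and for 23 (0.212%) and 9 (0.0831%) of those with a symbol. Against the IZ it differed for 504 (1.88%), 337 higher (1.25%) and 167 lower (0.622%). Both comparisons share the MZ libraries. With the replicate number of each stage as a block they called 1378 and 1273 features, among them 558 of the 561 and 497 of the 504, and with the number as 1 block over all stages 881 and 796. LINC-GLUL-1 rose in the MZ by 2.86 more than in the CP (SE 0.25, adjusted p = 4.73e-08) and by 1.67 more than in the IZ (SE 0.27, adjusted p = 0.000533). It had 41.0 and 41.6 CPM in the CP at E28, above the MZ, and 32.5 to 51.5 CPM in the CPi and CPo at E42, against 153 and 154 in the MZ. The OSVZ at E42 stood higher still, at 206 and 224 CPM. LINC-RHCG-2 rose by 2.55 more than in the CP (SE 0.54, adjusted p = 0.00937) and by 3.02 more than in the IZ (SE 0.57, adjusted p = 0.00409). In the VZ it was higher, at 115 CPM in the library of E42.

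**Figure D5:**
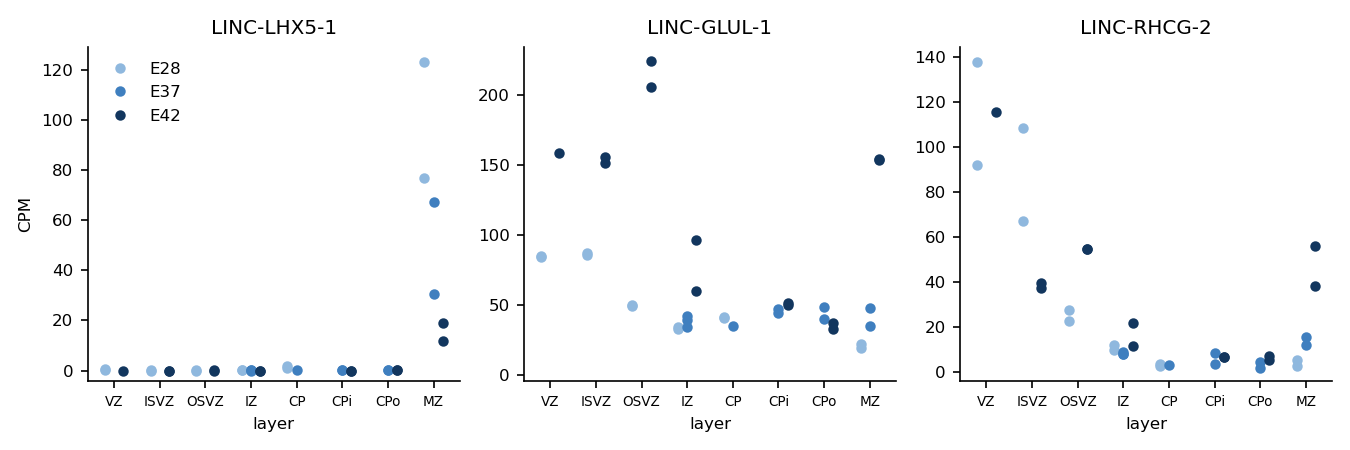
CPM of LINC-LHX5-1, LINC-GLUL-1 and LINC-RHCG-2 (vertical axes) in each layer and stage, 1 point per library, coloured by stage. LINC-LHX5-1 is above 1.93 CPM in the MZ alone. LINC-GLUL-1 in the MZ moves from the lowest levels at E28 to 153 and 154 CPM at E42, close to the VZ and ISVZ of that stage, and LINC-RHCG-2 moves from 2.37 and 5.16 to 38.0 and 56.0 CPM.

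PTCHD2-AS-1, antisense to a gene of a patched-domain protein, had 0.728 and 2.73 CPM in the MZ at E28, 3.50 and 2.86 at E37, and 10.3 and 12.2 at E42, while the CPi and CPo at E42 had 0.286 to 1.45 CPM. Its change in the MZ was larger by 4.44 than in the CP (SE 0.94, adjusted p = 0.00674) and by 4.04 than in the IZ (SE 1.0, adjusted p = 0.0279). The first was lost without replicate 1 of E28 (adjusted p = 0.058), and the second without replicate 1 of E28 (0.101) or either library of E42 (0.063 and 0.0956). PFKP-AS-1, antisense to a phosphofructokinase gene of glycolysis, went the other way. It had 9.92 and 8.95 CPM in the MZ at E28, 4.34 and 1.36 at E37, and 5.54 and 4.97 at E42, and its own change did not pass (log2 change −0.84, SE 0.48, adjusted p = 0.297). In the CPi at E42 it had 46.4 and 54.8 CPM and in the CPo 13.0 and 14.6, against 4.08 and 4.92 in the CP at E28. Its change in the MZ was lower by 3.40 than in the CP and by 4.88 than in the IZ, and both calls held without any 1 MZ library. LINC-REPS1-3 gave no such difference: its change in the MZ differed from that in the CP by 0.15 (SE 0.35, adjusted p = 1). For LINC-LHX5-1 the change in the MZ lay 2.73 above that in the CP, where its levels were at or below 1.93 CPM, and this difference did not pass (SE 0.95, adjusted p = 0.168).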

How the data were processed

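RNA of 36 libraries of laser-captured cortical layers was sequenced. The authors trimmed adapters, mapped with HISAT v2.1.0, ran HTSeq-count against the gene models of TS_3.0, and deposited integer counts per feature, not normalized. The strand setting is not given in the sources used here. Lines of the counter (45.89% to 52.02% of an MZ library, with reads that were ambiguous, on no feature or not aligned) were removed. Symbols come from the feature names; 10411 of 12435 occur in a RefSeq table of assembly TupChi_1.0, used for names alone.

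In R 4.3.3, edgeR 4.0.16 (TMM, filterByExpr with a minimum count of 10, robust quasi-likelihood test, common biological coefficient of variation 0.378) was fitted to 35 libraries in 18 groups, with 17 residual degrees of freedom, so all layers share 1 estimate of the spread. Replicate 2 of the VZ at E42 was left out, since its counts equal those of replicate 2 of the VZ at E28. Benjamini-Hochberg adjustment over 26858 features had a threshold of 0.05. Adjusted p-values in the report are from this fit, except where the text names an alternative or a library left out. The SE is the log2 change over the root of the F statistic. With no count in a group, folds were computed against 3 counts over the group; with 1 to 3 counts, an exact 95% interval of the ratio is given. Intervals and floors cover counting error only, since PCR duplicates are not told apart. In simulated data for E42 against E28 (25257 features), 79 of 100 features with a true log2 change of 2 and 22 of 100 with 1 were found, with 1 false call among 102. The simulation drew independent libraries from the fitted model, and its changed features had a mean of at least 1 CPM. It thus does not cover rarer features or differences shared by the libraries of a stage. Alternatives were DESeq2 1.42.0, its size factors, no filter, other sets of libraries, the replicate number as a block over all stages or, chosen after seeing the data, within each stage, a fold threshold, and each MZ library left out. Titles share replicate numbers between the layers of a stage; deviations of same-numbered libraries of the MZ and another layer correlated at 0.171 to 0.485, except for the OSVZ at E42 (−0.182).

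The features and the 16 gene lists were chosen with earlier results of these data known. Named were the 10 rising and 10 falling features with a symbol with the largest log2 change of E42 against E28 among called ones with a mean of at least 1 CPM, 3 in each direction for E37 against the mean of the others and for both intervals, 4 for the change against the CP and the IZ, up to 4 per list with the smallest adjusted p, the tested RELN features, and 2 unnamed features in each direction at a mean of at least 5 CPM. The text gives values for a part of them, and 1 is not reported here.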

Additional observations from a re-analysis of the deposited data

Results flagged for a closer look

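The change from E28 to E42 in the MZ differed from that in the CP or the IZ by a test of the difference itself (edgeR quasi-likelihood test, interaction contrast). Against the CP this held for 23 features with a symbol that were higher and 9 that were lower. Values are given on the log2 scale for the 13 features that the naming rule took, up to 4 in each direction against each layer. Against the CP, it was higher in the MZ for LINC-ITIH5-1 (6.04), NTRK2-AS-8 (5.15), PTCHD2-AS-1 (4.44) and LINC-GLUL-1 (2.86), and lower for LINC-VSTM2A-2 (−5.52), LINC-ABHD5-4 (−4.72), PFKP-AS-1 (−3.40) and FLRT2-AS-1 (−2.89). Against the IZ, it was higher for LINC-SOX9-15 (7.73), AQP4-AS-1 (5.73), LINC-AAGAB-1 (4.08) and PTCHD2-AS-1 (4.04), and lower for PFKP-AS-1 (−4.88), CHSY3-AS-1 (−3.36) and NRSN2-AS-1 (−2.50). LINC-SOX9-15 had no count in the MZ at E28, so the size of its difference is not fixed by the data.

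LINC-GLUL-1 and PFKP-AS-1 against the CP, and PFKP-AS-1 and CHSY3-AS-1 against the IZ, passed without any 1 MZ library. The other calls were lost without at least 1 library. Against the CP, LINC-ITIH5-1 was lost without any 1 library of E28 or E42 (adjusted p = 0.0598 to 0.126), NTRK2-AS-8, LINC-ABHD5-4 and FLRT2-AS-1 without replicate 1 of E28 (0.155, 0.133 and 0.117) or either library of E42 (0.0652 to 0.168), and PTCHD2-AS-1 and LINC-VSTM2A-2 without replicate 1 of E28 (0.058 and 0.0664). Against the IZ, LINC-SOX9-15 was lost without replicate 1 of E28 (0.0724), AQP4-AS-1 without that library (0.108) or replicate 1 of E42 (0.0681), LINC-AAGAB-1 without replicate 2 of E28 (0.0714) or either library of E42 (0.103 and 0.0579), and NRSN2-AS-1 without replicate 1 of E42 (0.126).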

How the results depend on the processing

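The number of calls depended on how the spread was estimated. With the 6 MZ libraries alone it was 1129 for E42 against E28, 173 for E37 against E28, 138 for E42 against E37 and 1 for E37 against the mean of E28 and E42. With all 36 libraries the last 3 were 598, 213 and 12, and the changes against the CP and the IZ gave 324 and 177. The DESeq2 Wald test gave 2199, 1113, 500, 1137 and 1053 calls for these 5 comparisons, of which 58.4%, 68.9%, 48%, 52.2% and 54.6% were higher, against 70.1%, 86.9%, 65.5%, 66% and 66.9%. Without a filter on low counts, E37 against the mean gave 336, and the changes against the CP and the IZ 881 and 822. Replicate numbers did not pair the MZ libraries of E28 and E42 (correlation of deviations 0.00579). With the number as 1 block over all stages the 5 comparisons gave 2299, 815, 533, 881 and 796 calls. With the number of each stage as a block, the changes against the CP and the IZ gave 1378 and 1273 and the MZ against the CP at E28 gave 4276, and all 15 values named for these changes kept their call. Leaving out 1 MZ library gave 1523 to 2734 calls for E42 against E28, 605 to 1572 and 154 to 563 for the intervals, 12 to 205 for E37 against the mean, 256 to 755 against the CP and 266 to 621 against the IZ. Among the 50 features named for E42 against E28, 29 kept their call in each of these, 3 lost it in 1 and 18 in more. With the 500 most variable features, PC1 held 58.7% of the variance. None of the 73 values of features named by the rule changed sign in the alternatives run for it.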
